A study of Mus musculus with 6 samples.

Results

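Lamina-associated domains (LADs), the long stretches of the genome that touch the nuclear lamina, were mapped in mouse embryonic fibroblasts depleted of 1 lamin at a time, and the sequence described here is that called LAD in the LmnA RNAi map and in the LmnC RNAi map but not in the LmnB1 RNAi map. The members were found by intersecting the LAD lists for LmnA RNAi and for LmnC RNAi on chromosomes 1 to 19, subtracting the LADs of the LmnB1 RNAi map, removing spans of 10 kb or more without any GATC fragment (assembly gaps), and keeping the contiguous stretches of 50 kb or more. There were 383 such stretches, with 54.3 Mb in all. They made up 2.27% of the autosomal fragment length and 4.03% of the 1348 Mb that was LAD in both the LmnA RNAi and LmnC RNAi maps, which lay in 1868 intervals. Coordinates are in the mm9 build.

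In DamID, a bacterial adenine methyltransferase (Dam) fused to a lamin methylates the GATC sites it comes close to, and cells with Dam alone measure how open each site is to the enzyme. The cells were wild-type fibroblasts of the C57BL/6 strain that had received lentiviral shRNA, had been selected with puromycin and had then been transduced with Dam alone or with a Dam fusion, per the labels. Dam-LmnA was the fusion in the LmnB1 RNAi cells, and Dam-LmnB1 that in the LmnA RNAi cells and in the LmnC RNAi cells. Each of the 3 maps rested on 1 fusion library and 1 Dam-only library. The LmnB1 target and the Dam-LmnA fusion were taken from the description and title labels, since the treatment protocol names only shRNA against LmnA or LmnC and Dam alone or Dam-Lamin B1.

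Lamins are filament proteins that line the inner nuclear membrane. Lamin A and lamin C are splice products of Lmna, whereas lamin B1 is the product of Lmnb1 and stays tied to the membrane through a lipid anchor. LADs are mostly gene-poor, late-replicating and weakly transcribed, and their borders are sharp.

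Because the LAD lists of these maps chose the members, every signal value in the members is a description. With 1 library pair per map there was no spread between replicates, so no test was possible. The targeted lamin and the fusion changed together between the LmnB1 RNAi map and the other maps and cannot be told apart. Depletion of the lamins was not measured in these files, the identity of the cells could not be checked against marker genes, and no map of cells that had received no shRNA was used here. In a cell population, fewer cells with a contact and a weaker contact in each cell cannot be told apart.

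The signal is the deposited log2 ratio of fusion reads to Dam-only reads for each GATC fragment, averaged over a member with fragments weighted by length. A fragment read in only 1 of the libraries of a map has a value beyond 12 in either direction, because a very small number was added to both read counts before the ratio was taken. The letters of 5 promoter windows that lie in members are shown so that the sites Dam can mark, and the short fragments between them, can be seen beside the reads. These are RefSeq windows (build GRCm38.p6) of 300 bases, from 250 before to 50 after the start of the gene, written 5′ to 3′ along the gene with each GATC in capitals. They were placed on mm9 by matching the spacing of at least 3 GATC sites to the fragments of the maps, and they were chosen after the values were seen. Trappc11 encodes a subunit of the TRAPP vesicle-tethering complex, Ccng2 encodes cyclin G2, Esr2 encodes estrogen receptor beta, Il2ra encodes the alpha chain of the interleukin-2 receptor, and Neurog1 encodes the neurogenic transcription factor neurogenin 1.
Trappc11: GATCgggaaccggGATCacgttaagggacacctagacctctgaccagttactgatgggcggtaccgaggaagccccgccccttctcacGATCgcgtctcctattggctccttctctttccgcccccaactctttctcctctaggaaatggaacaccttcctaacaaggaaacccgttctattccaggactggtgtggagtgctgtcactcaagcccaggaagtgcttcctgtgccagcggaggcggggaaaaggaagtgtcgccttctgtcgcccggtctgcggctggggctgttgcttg
Ccng2: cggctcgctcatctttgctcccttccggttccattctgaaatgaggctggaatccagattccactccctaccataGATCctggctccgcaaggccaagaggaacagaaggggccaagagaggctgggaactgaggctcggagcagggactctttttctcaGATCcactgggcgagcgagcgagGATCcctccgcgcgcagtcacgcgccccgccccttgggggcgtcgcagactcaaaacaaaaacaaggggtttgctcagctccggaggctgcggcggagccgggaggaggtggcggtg
Esr2: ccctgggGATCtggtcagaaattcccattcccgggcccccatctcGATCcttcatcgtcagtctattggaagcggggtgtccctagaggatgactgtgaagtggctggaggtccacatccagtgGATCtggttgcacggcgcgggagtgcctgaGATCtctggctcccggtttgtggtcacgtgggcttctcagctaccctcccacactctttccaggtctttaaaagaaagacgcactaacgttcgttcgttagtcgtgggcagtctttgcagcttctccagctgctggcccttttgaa
Il2ra: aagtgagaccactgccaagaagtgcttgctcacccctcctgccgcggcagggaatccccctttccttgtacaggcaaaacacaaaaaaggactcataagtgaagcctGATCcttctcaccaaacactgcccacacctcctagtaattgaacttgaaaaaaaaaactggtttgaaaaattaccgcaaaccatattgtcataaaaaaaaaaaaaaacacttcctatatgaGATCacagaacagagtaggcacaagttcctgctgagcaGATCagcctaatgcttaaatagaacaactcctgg
Neurog1: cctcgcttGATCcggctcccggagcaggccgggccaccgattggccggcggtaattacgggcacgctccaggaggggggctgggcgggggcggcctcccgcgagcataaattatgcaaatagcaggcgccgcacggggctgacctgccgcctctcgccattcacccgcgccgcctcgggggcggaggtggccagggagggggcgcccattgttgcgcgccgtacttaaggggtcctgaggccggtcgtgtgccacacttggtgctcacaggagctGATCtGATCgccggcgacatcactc

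The windows of Neurog1 and Ccng2 were rich in CpG, with 32 and 21 CpG dinucleotides, and those of Trappc11 and Esr2 held 17 and 14. The Il2ra window held 3 CpG. The G+C content was 69.3% for Neurog1, 62.0% for Ccng2, 58.0% for Trappc11, 56.0% for Esr2 and 42.7% for Il2ra, beside a median of 52.7% over all windows. Windows with 3 or more GATC sites are unusual, at 1057 of the 31396 windows on the autosomes, so most promoters could not be placed in this way.

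The members were mostly short pieces of LADs. Their median length was 114 kb (quartiles 77.2 and 169 kb), and they ran from 50.036 kb to 1069 kb. Of the 383 members, 231 reached 100 kb, 62 reached 200 kb, 23 reached 300 kb and 7 reached 500 kb. Below the 50 kb limit lay a further 857 stretches with 11.2 Mb in all and a median of 8.69 kb. The members just above the limit were chr18:30418438-30468473 (50.036 kb), with mean log2 ratios of 0.03 after LmnB1 RNAi, 1.71 after LmnA RNAi and 0.67 after LmnC RNAi, as well as chr2:157804072-157854359 (50.288 kb), with -0.98 after LmnB1 RNAi, 0.26 after LmnA RNAi and -0.19 after LmnC RNAi. The stretches just below the limit were chr6:54513695-54562926 (49.232 kb), with -1.62, -0.64 and -2.67 in the same order of maps, and chr15:88726064-88775233 (49.17 kb), with -0.86, -0.28 and -1.03. In this handful the stretches below the limit had the lower ratios after LmnA RNAi and after LmnC RNAi.

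The commonest member was the edge of a LAD that was still called after LmnB1 RNAi. In 187 members (48.8%, 22.7 Mb, median 98.3 kb), 1 side met a LAD of the LmnB1 RNAi map, so the LAD was shorter there on that side. A further 72 members (18.8%, 8.14 Mb, median 90.0 kb) were bridges that met a LmnB1 RNAi LAD on both sides, and 6 members lay otherwise, beside gaps. The remaining 118 members (30.8%, 22.8 Mb, median 149 kb) filled an interval shared by the LmnA RNAi and LmnC RNAi maps that no LmnB1 RNAi LAD touched. Of these 118, 79 lay in a LmnA RNAi LAD and a LmnC RNAi LAD that both touched no LmnB1 RNAi LAD, so that the whole LAD had no counterpart after LmnB1 RNAi. The nearest LmnB1 RNAi LAD was a median of 164 kb away from these 118 members, under 50 kb away for 16 of them and over 200 kb away for 50.

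Members were scattered. They lay in 369 different shared intervals, of which 14 held 2 members and none held more. The next member on the chromosome was a median of 4.17 Mb away, and 67 members had their next neighbour within 1 Mb.

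Member sequence carried an intermediate signal in all maps, between that of LADs common to all maps and that of sequence in no LAD. Pooled over member sequence, the mean log2 ratio was -0.22 after LmnB1 RNAi, 0.89 after LmnA RNAi and -0.24 after LmnC RNAi. Sequence in LADs of all maps had 1.76 after LmnB1 RNAi, 2.31 after LmnA RNAi and 1.53 after LmnC RNAi, while sequence in no LAD of any map had -2.17, -2.06 and -3.13 in the same order. In the LmnB1 RNAi map the members thus lay well above sequence outside LADs, although they were not called LAD there.

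In the reads of single-library fragments, too, LmnA RNAi stood apart, and LmnB1 RNAi and LmnC RNAi were close. Of the member fragments, 10.5% were read only in the fusion library and 10.9% only in the Dam-only library after LmnB1 RNAi, against 16.8% and 6.12% after LmnA RNAi and 11.7% and 9.78% after LmnC RNAi. These fragments held 25642 fusion reads and 31761 Dam-only reads after LmnB1 RNAi, a ratio of 0.807, against a ratio of 3.36 after LmnA RNAi (52823 and 15711 reads) and 0.858 after LmnC RNAi (27900 and 32524 reads). Fusion reads were in excess after LmnA RNAi only. In LADs of all maps, the same ratio was 6.07 after LmnB1 RNAi, 11.3 after LmnA RNAi and 4.60 after LmnC RNAi, so fusion reads led in each map there. Over all autosomes it was 1.06, 2.04 and 0.675 in the same order, so the maps already differed in overall level. Relative to these values, members were lower after LmnB1 RNAi and higher after LmnA RNAi and LmnC RNAi. The reads were not corrected for library size.

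**Figure D1:**
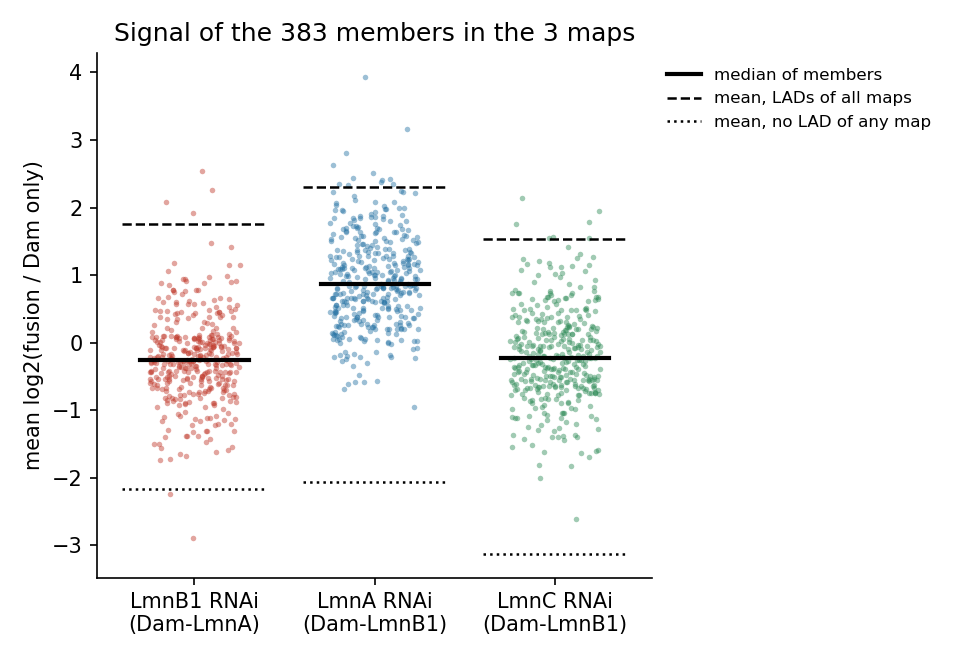
Mean log2 ratio of fusion over Dam-only reads (vertical axis) of each of the 383 members after LmnB1 RNAi (made with Dam-LmnA), LmnA RNAi and LmnC RNAi (both made with Dam-LmnB1). Each point is a member, the solid bar is the median over members (-0.26, 0.87 and -0.23), the dashed bar is the mean of LADs of all maps and the dotted bar that of sequence in no LAD. Most members lie between the dashed and dotted bars in each map, and their medians after LmnB1 RNAi and LmnC RNAi are close.

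Member by member, the deposited ratios of the LmnB1 RNAi map stood below those of the LmnA RNAi map but about level with those of the LmnC RNAi map. The median member had -0.26 after LmnB1 RNAi, 0.87 after LmnA RNAi and -0.23 after LmnC RNAi, with an SD over members of 0.66, 0.70 and 0.70. The LmnB1 RNAi value minus the LmnA RNAi value had a median of -1.13 (quartiles -1.55 and -0.76), and 377 of 383 members (98.4%) were below the LmnA RNAi value. Over all autosomal 100 kb bins this share was 75.4%, and over bins with at least 50% of their sequence in shared LADs it was 83.1%. The LmnB1 RNAi value minus the LmnC RNAi value had a median of -0.05 (quartiles -0.38 and 0.32), and 210 members (54.8%) were below the LmnC RNAi value, beside 21.1% of all bins and 33.4% of bins in shared LADs. That count was 327 (85.4%) after each map was centred on its median autosomal bin, beside 47.4% and 67% of these bins, and 132 (34.5%) without fragments read in only 1 library, beside 34.1% and 56.5%. The order of LmnB1 RNAi and LmnC RNAi in the members therefore depended on the scaling. Nothing is read from the distance to these backgrounds, since the LAD calls that chose the members rest on the same ratios.

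Below both other maps at once were 208 members (54.3%), beside 20.2% of all autosomal bins and 32% of bins in shared LADs. By more than 0.5 below both were 75 members (19.6%), beside 4.31% and 7.23% of these bins. The maps differ in their overall level, with a median autosomal bin of 0.53 after LmnB1 RNAi, 1.21 after LmnA RNAi and 0.06 after LmnC RNAi, so the order of the maps in a member depends on whether this is taken out. After each map was centred on that median, 274 members (71.5%) were below both other maps, beside 25.3% of all bins and 35.9% of bins in shared LADs, and the median difference was -0.45 from LmnA RNAi and -0.51 from LmnC RNAi. When fragments read in only 1 library were left out instead, the median difference was -0.34 from LmnA RNAi and 0.09 from LmnC RNAi, and 128 members (33.4%) were below both, beside 32.5% of all bins and 54.3% of bins in shared LADs. Leaving out the fragments with no reads or equal reads in both libraries as well gave 104 members (27.2%) below both, beside 28.3% and 47.6% of these bins. Below both were 277 members (72.3%) after quantile normalization, beside 33.8% of all bins and 36% of bins in shared LADs, and 300 (78.3%) with fragments weighted equally, beside 32.4% and 44.8%. The position below LmnA RNAi was found in each of these settings, whereas the position relative to LmnC RNAi turned with the setting.

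Splitting each member's fragments into odd and even ones gave a measure of the error from the sampling of fragments within 1 map. The difference from LmnA RNAi was below 0 in both sets of fragments for 361 members, above 0 in both for 3 and of unlike sign for 19. The difference from LmnC RNAi was below 0 in both for 129, above 0 in both for 112 and of unlike sign for 142. The error of a member's difference was 0.36 for LmnA RNAi and 0.34 for LmnC RNAi (SD from fragment sampling). The median deposited difference from LmnA RNAi (-1.13) was larger than this error. That from LmnC RNAi (-0.05) was within it, but its quartiles (-0.38 and 0.32) were about as large as the error. Without single-library fragments the errors were 0.12 and 0.11. The difference from LmnA RNAi was then below 0 in both sets for 326 members, above 0 in both for 17 and of unlike sign for 40. For LmnC RNAi these counts were 85, 198 and 100.

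**Figure D2:**
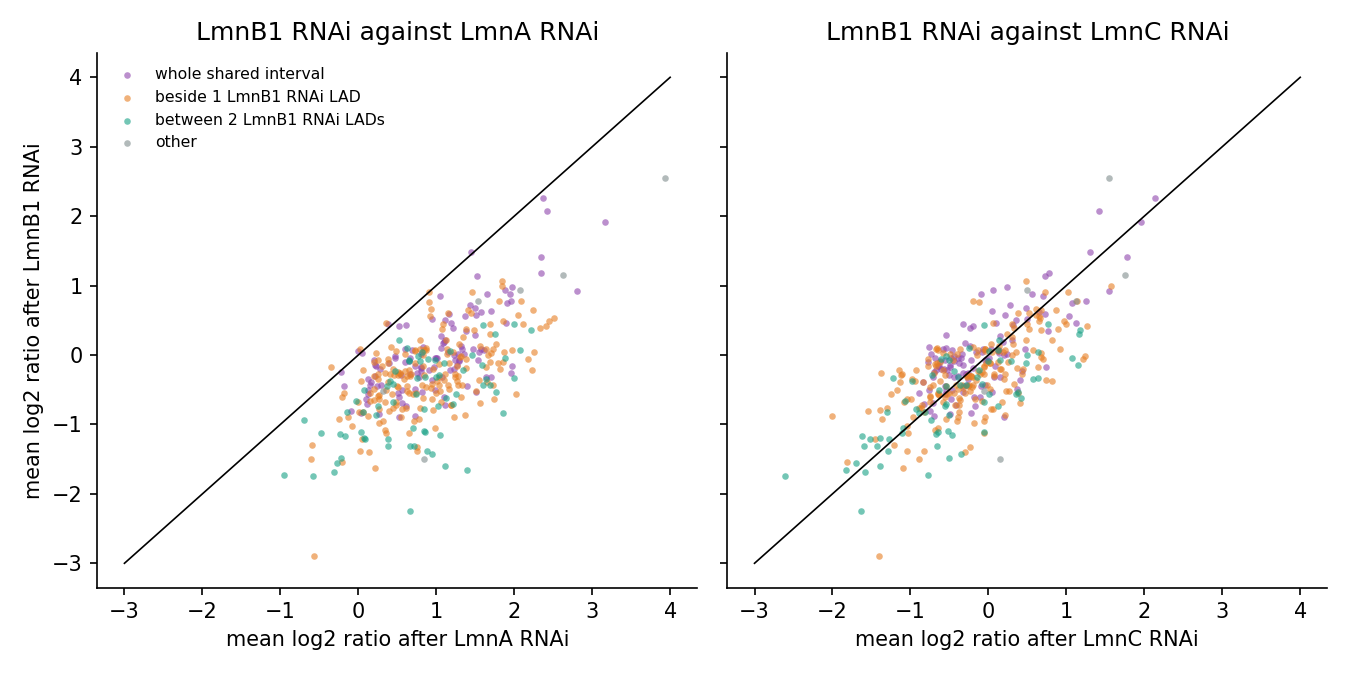
Mean log2 ratio of each member after LmnB1 RNAi (vertical axis) against that after LmnA RNAi (left) and after LmnC RNAi (right), coloured by the place of the member, with the line of equal values. On the left 377 of 383 points lie below the line, and on the right 210 do.

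Place and length moved with these values in the deposited ratios. Members that filled a whole shared interval had medians of -0.06 after LmnB1 RNAi, 1.03 after LmnA RNAi and -0.20 after LmnC RNAi. Of these 118, 48 were below the LmnC RNAi value. Edges had medians of -0.29, 0.84 and -0.20 in the same order, and 114 of 187 were below LmnC RNAi, and bridges had -0.59, 0.78 and -0.51, with 44 of 72 below LmnC RNAi. The bridges were thus the least marked after LmnB1 RNAi and after LmnC RNAi. Of all autosomal bins 21.1% were below LmnC RNAi as deposited, and of bins in shared LADs 33.4%. After centring, 98 whole intervals, 159 edges and 65 bridges were below it, beside 47.4% and 67% of these bins. Without single-library fragments 36, 67 and 24 were, beside 34.1% and 56.5%. The median differences from LmnC RNAi were then 0.11, 0.09 and 0.08, so the places were close in that setting. By length, 98 of 152 members under 100 kb were below the LmnC RNAi value, 85 of 169 members of 100 to 200 kb, 17 of 39 members of 200 to 300 kb and 10 of 23 members of 300 kb or more. The median difference from LmnC RNAi was -0.17, -0.01, 0.06 and 0.13 in these classes as deposited, and -0.63, -0.48, -0.40 and -0.34 after centring, so the shorter members, which were mostly edges and bridges, had the lower values. The sign in each class depended on the scaling, and without single-library fragments the medians were 0.08, 0.10, 0.07 and 0.05.

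At the border with a LmnB1 RNAi LAD the signal stepped down in every map, and in the deposited ratios the step was deepest after LmnB1 RNAi. Over 331 such borders, the last 10 kb of the LmnB1 RNAi LAD had 1.77 ± 0.06 after LmnB1 RNAi, 2.05 ± 0.08 after LmnA RNAi and 0.97 ± 0.08 after LmnC RNAi (SE over borders). The first 10 kb of the member had -0.78 ± 0.07 after LmnB1 RNAi, 0.81 ± 0.09 after LmnA RNAi and -0.30 ± 0.09 after LmnC RNAi. The LmnB1 RNAi ratios placed this border, so the depth of their step is part of how it was chosen. The next 10 kb had -0.85 after LmnB1 RNAi, 0.47 after LmnA RNAi and -0.77 after LmnC RNAi, while at 40 to 50 kb, over the 241 borders with a member that long, the values were -0.30, 0.87 and -0.21. Beyond the first 10 kb, then, the deposited ratios after LmnB1 RNAi and LmnC RNAi ran close to each other. The LmnA RNAi and LmnC RNAi maps, which called these members LAD, also had lower ratios in the member than in the LAD beside it.

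Members that filled a whole shared interval stood above their surroundings in all 3 maps. Over the 112 of them with 100 kb or more, the mean over 10 equal pieces of the member lay between -0.16 and 0.12 after LmnB1 RNAi, between 0.87 and 1.16 after LmnA RNAi and between -0.28 and 0.03 after LmnC RNAi. In the 20 kb before the member the means were -1.64 after LmnB1 RNAi, -1.08 after LmnA RNAi and -2.51 after LmnC RNAi, while in the 20 kb after it they were -1.54, -0.95 and -2.42. A raised signal was thus present over these intervals after LmnB1 RNAi as well, although no LAD was called there.

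**Figure D3:**
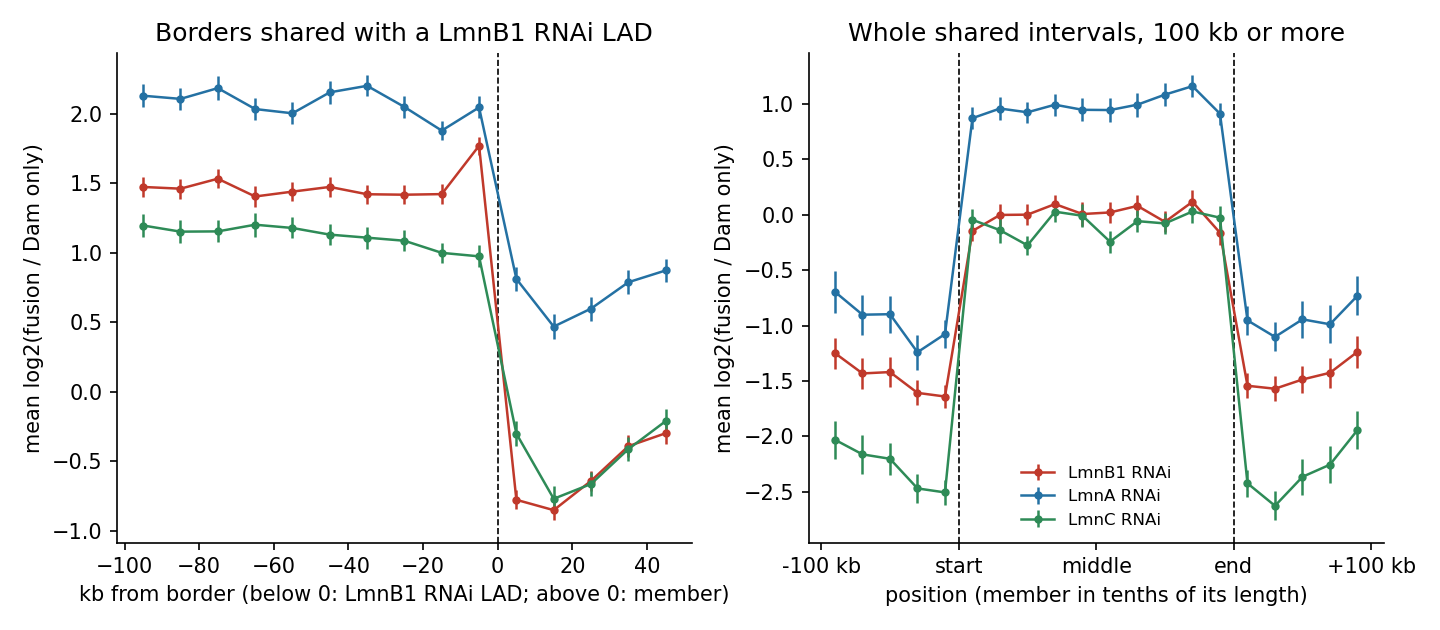
Left, mean log2 ratio in 10 kb bins around the 331 borders between a LmnB1 RNAi LAD (below 0 kb) and a member (above 0 kb). Right, mean log2 ratio over 10 equal pieces of the 112 whole shared intervals of 100 kb or more and over 20 kb bins on either side. Lines are the maps after LmnB1 RNAi, LmnA RNAi and LmnC RNAi, and bars are SE over borders or members within 1 map. All maps step down into the member on the left (to -0.78 after LmnB1 RNAi) and all stand higher over the member than beside it on the right.

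The members were also set against the LADs that each map itself called. Among the 827 LmnB1 RNAi LADs under 500 kb, the median mean ratio was 1.02 and the 5th percentile was -0.09, and 147 members (38.4%) exceeded that 5th percentile. In the LmnA RNAi map 363 members (94.8%) exceeded the 5th percentile of its own short LADs, and in the LmnC RNAi map 283 (73.9%) did. In the deposited ratios 10 members even exceeded the median of the short LmnB1 RNAi LADs, beside 150 in the LmnA RNAi map and 38 in the LmnC RNAi map. Without single-library fragments, 256 members (66.8%) exceeded the 5th percentile after LmnB1 RNAi, 371 (96.9%) after LmnA RNAi and 288 (75.2%) after LmnC RNAi. The median was then exceeded by 36, 154 and 37 members in the same order, so LmnB1 RNAi and LmnC RNAi were closer in that setting. The deposited 5th percentiles (-0.09 after LmnB1 RNAi, -0.14 after LmnA RNAi and -0.62 after LmnC RNAi) lay below the median autosomal bin of each map (0.53, 1.21 and 0.06). The share of bins above these cuts was not computed, so the counts do not set members apart from other sequence. Of the 10 members above the LmnB1 RNAi median, 6 were shorter than the shortest LmnB1 RNAi LAD (100.293 kb), 3 lay beside an assembly gap and 7 filled a whole shared interval. The member chr2:22397432-22472722 had 2.55 after LmnB1 RNAi, 3.94 after LmnA RNAi and 1.55 after LmnC RNAi, while chr12:31599499-31680498 had 2.26, 2.37 and 2.14. These 10 members had LAD-like ratios after LmnB1 RNAi and were missing from its LAD list, and what part the length limit of the LADs played was not tested.

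The 8 longest members covered 397 to 1069 kb. The longest, chr6:148184171-149253294, a whole shared interval with 2685 fragments near the telomeric end of its chromosome, had 0.01 ± 0.08 after LmnB1 RNAi, 1.35 ± 0.09 after LmnA RNAi and -0.34 ± 0.08 after LmnC RNAi (SE over fragments within 1 map). It was far below LmnA RNAi but above LmnC RNAi. The same order, with LmnB1 RNAi between LmnC RNAi and LmnA RNAi, held in chr15:36984352-37723886 (740 kb), which had -0.34 after LmnB1 RNAi, 0.26 after LmnA RNAi and -0.98 after LmnC RNAi. It held too in chr10:42751898-43412855 (661 kb), which had -0.04, 0.99 and -0.39, and in chr9:122440530-123012532 (572 kb), which had -0.20, 0.28 and -0.61. The bridge chr1:21447915-22004465 (557 kb) had 0.10 after LmnB1 RNAi, 0.62 after LmnA RNAi and -0.25 after LmnC RNAi, while chr14:66010632-66407310 (397 kb) had -0.22, 0.91 and -0.53. LmnB1 RNAi was lowest in chr17:86583495-87142399 (559 kb), which had -0.88 after LmnB1 RNAi, 0.73 after LmnA RNAi and -0.70 after LmnC RNAi. It was also lowest in chr2:127115846-127887204 (771 kb), which had -0.05 after LmnB1 RNAi, 0.46 after LmnA RNAi and 0.00 after LmnC RNAi, where the gap to LmnC RNAi was smaller than the SE. In 6 of the 8 longest members the deposited ratio after LmnB1 RNAi was therefore above that after LmnC RNAi, but after centring this held for 1 of the 8, the member on chromosome 15.

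The next members, of 100 kb or more, had the lowest LmnB1 RNAi value relative to the mean of the other maps, after centring. Their deposited LmnB1 RNAi ratios were below 0. Their LmnA RNAi ratios ran from 1.05 to 1.99, beside 1.21 for the median autosomal bin of that map. In chr11:113295748-113469487 the ratio was -0.86 ± 0.19 after LmnB1 RNAi, 1.37 ± 0.22 after LmnA RNAi and 0.21 ± 0.18 after LmnC RNAi. In chr12:89596129-89735004 it was -0.33 ± 0.22, 1.99 ± 0.24 and 0.63 ± 0.26 in the same order. In these members LmnB1 RNAi stood below both other maps by more than the SE of the values, but they were chosen for this gap. Without single-library fragments the difference from LmnC RNAi was -0.36 on chromosome 11 and -0.30 on chromosome 12. The others of this kind were chr5:129879582-130004618, with -0.36 after LmnB1 RNAi, 1.54 after LmnA RNAi and 0.73 after LmnC RNAi, chr11:46875750-47211746, with -1.16, 1.05 and -0.46, and chr1:127505241-127641401, with -0.52, 1.51 and 0.26. The centred difference was -1.55, -1.54, -1.39, -1.35 and -1.30 in these 5 members, in the order given.

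In 53 members, 39 of them among the 231 of 100 kb or more, the centred ratio after LmnB1 RNAi was above the mean of the maps that called them LAD, and the 5 highest of 100 kb or more are given here. In chr9:83298135-83435951 the ratio was 0.45 after LmnB1 RNAi, 0.38 after LmnA RNAi and -0.32 after LmnC RNAi, with a centred difference of 0.53. In chr17:74218701-74501671 it was 0.08, 0.03 and -0.67, and in chr3:101587218-101905176 it was -0.21, 0.06 and -1.14, with centred differences of 0.51 and 0.44. The other 2, chr16:51868609-51979956 and chr5:54082690-54317140, each had a centred difference of 0.36. In the members on chromosomes 9 and 17 just named, the deposited ratios after LmnB1 RNAi and LmnA RNAi differed by less than their SEs, which were 0.21 and 0.23 on chromosome 9 and 0.18 and 0.17 on chromosome 17.

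**Figure D4:**
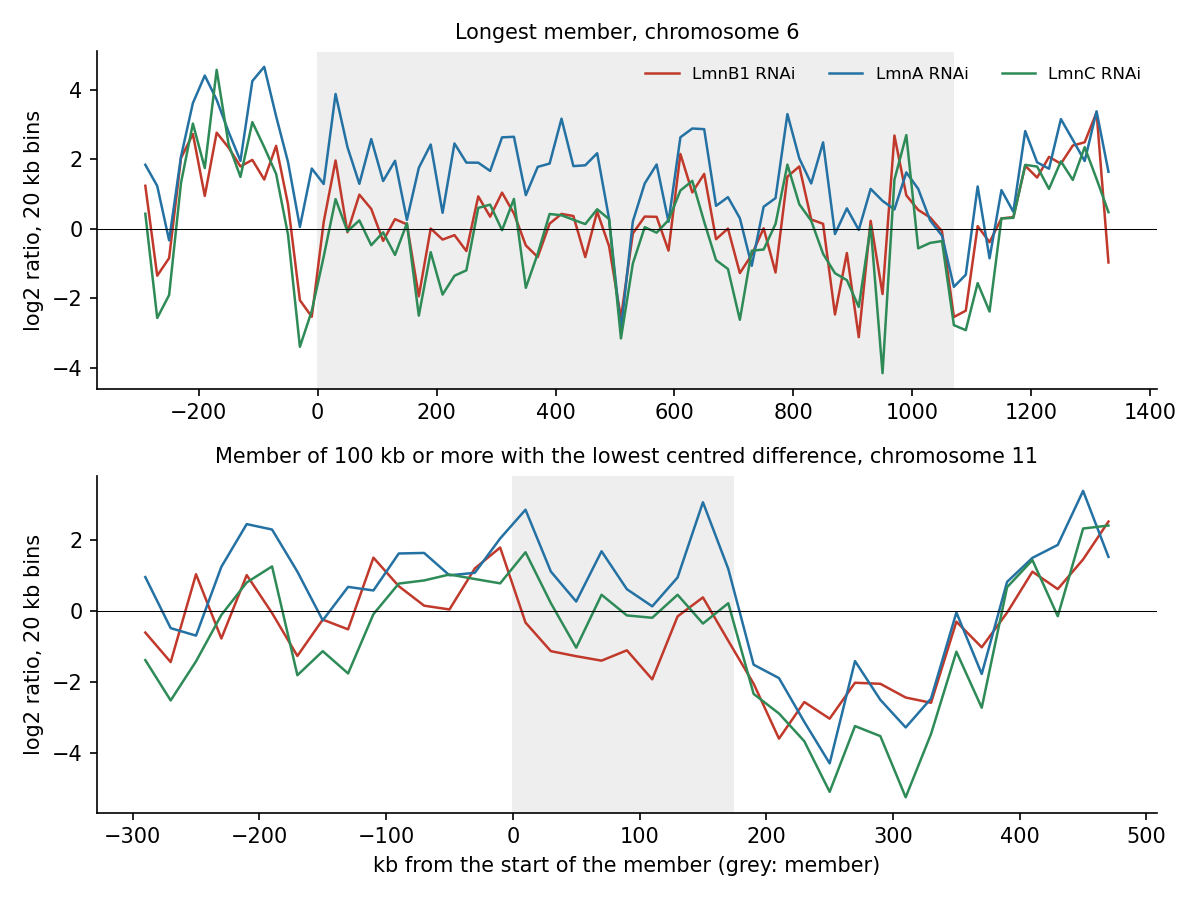
Log2 ratio in 20 kb bins (vertical axis) against distance in kb from the start of the member, for the longest member (top, chromosome 6) and for the member of 100 kb or more with the lowest centred difference (bottom, chromosome 11). Red, blue and green lines are the maps after LmnB1 RNAi, LmnA RNAi and LmnC RNAi, and the member is grey. In the top panel LmnB1 RNAi (mean 0.01) runs with LmnC RNAi (-0.34) below LmnA RNAi (1.35), and in the bottom panel LmnB1 RNAi (-0.86) runs below both.

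Members occurred on every autosome at similar rates. They made up 4.07% ± 0.835 of shared LAD length per chromosome (mean and SD over 19 chromosomes), from 2.94% on chromosome 1 to 5.40% on chromosome 12. Chromosome 12 also held the most members, at 35, and chromosome 19 the fewest, at 9. Whole shared intervals were most numerous on chromosome 2, with 15 of its 30 members, while chromosome 19 had 5 among 9 and chromosome 15 had 1 among 13.

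Member sequence was placed toward the telomeric ends of the acrocentric mouse chromosomes, a feature the choice of members did not use. The last 10 Mb of the chromosomes held 13.1% of member length, beside 7.33% of all shared LAD length and 7.89% of all autosomal fragment length. The same window held 6.95% of the sequence missing only after LmnC RNAi, 8.89% of that missing only after LmnA RNAi and 9.18% of sequence in no LAD. The 10 Mb at the centromeric end held 6.74% of member length, beside 8.69% of shared LAD length. A count of members gave 39 (10.2%) centred in the telomeric window and 28 in the centromeric one, with no count for other sequence set beside it. The share in the telomeric 10 Mb was not among the measures set in advance.

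The telomeric share rested in part on a few chromosomes. It was higher for members than for shared LADs on 11 of 19 chromosomes, and was 0 for members on 2 of them (13 and 14). On chromosome 6, which holds the longest member, it was 35.8% for members, beside 7.17% for shared LADs, and without that member the share over all chromosomes was 11.3%. The 39 telomeric members had median ratios of -0.15 after LmnB1 RNAi, 0.93 after LmnA RNAi and -0.04 after LmnC RNAi, close to the medians of -0.27, 0.86 and -0.23 of the 344 members elsewhere. With 1 map per knockdown this placing is a description of these lists, and no test of it was made.

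**Figure D5:**
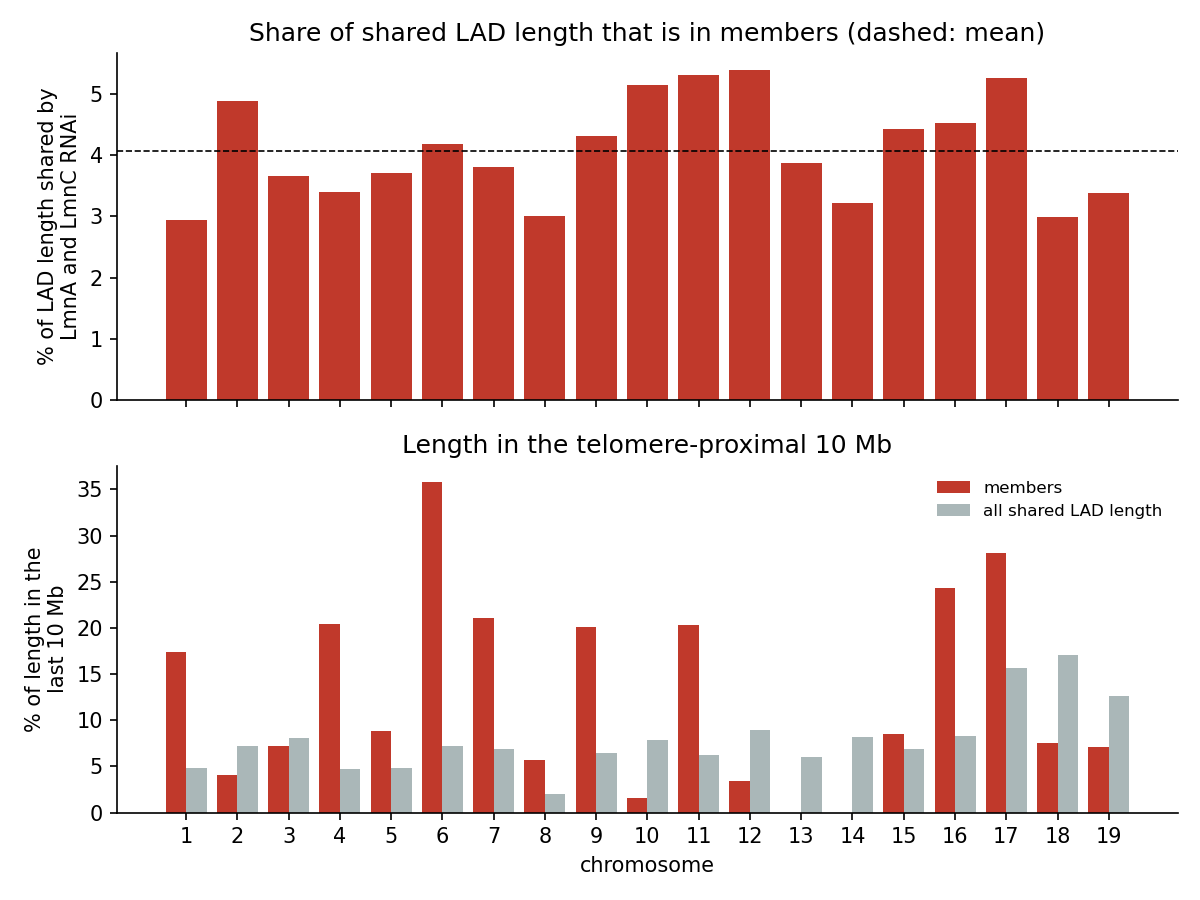
Top, percent of the LAD length shared by LmnA RNAi and LmnC RNAi that lies in members, for each autosome, with the mean over chromosomes (4.07%) dashed. Bottom, percent of member length (red) and of all shared LAD length (grey) in the telomere-proximal 10 Mb of each chromosome. The members' share is the higher one on 11 of 19 chromosomes and reaches 35.8% on chromosome 6.

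GATC sites were slightly sparser in members than in LADs of all maps. Members had 2.45 fragments per kb (mean fragment 408 bp), beside 2.59 in LADs of all maps, 2.41 in sequence in no LAD and 2.51 over all autosomes. Sequence missing only after LmnC RNAi had 2.46 and that missing only after LmnA RNAi had 2.48, values close to that of members.

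The same rule applied to the other maps gave 410 stretches (68.5 Mb) missing only after LmnC RNAi and 103 stretches (10.9 Mb) missing only after LmnA RNAi, so members were fewer than the first and more than the second. Their median length of 114 kb lay beside 119 kb and 85.1 kb. Whole shared intervals made up 30.8% of members, beside 26.8% of the stretches missing after LmnC RNAi and 19.4% of those missing after LmnA RNAi. Sequence missing only after LmnC RNAi had pooled means of 0.15 after LmnB1 RNAi, 0.81 after LmnA RNAi and -0.91 after LmnC RNAi, so the map without the LAD call was the lowest. Sequence missing only after LmnA RNAi had 0.23 after LmnB1 RNAi, -0.03 after LmnA RNAi and -0.32 after LmnC RNAi. In the pooled means of members and of this last set, the deposited LmnC RNAi ratio was no higher than that of the map without the call. For members this depended on the averaging. The mean over members was higher in the LmnC RNAi map, at -0.18, than in the LmnB1 RNAi map, at -0.24. Centring put LmnC RNAi above the map without the call in both sets. After centring, members had means of -0.77 after LmnB1 RNAi, -0.28 after LmnA RNAi and -0.24 after LmnC RNAi, the stretches missing after LmnC RNAi had -0.37, -0.40 and -0.94, and those missing after LmnA RNAi had -0.34, -1.33 and -0.40 (means over stretches). The map without the call was then the lowest in each set. Each set was chosen for lacking that call, so this order is partly set by the choice. Without single-library fragments it held only for the stretches missing after LmnC RNAi, with -0.45 after LmnC RNAi. Members then had -0.26 after LmnC RNAi beside -0.18 after LmnB1 RNAi. The stretches missing after LmnA RNAi had -0.30 after LmnC RNAi beside -0.20 after LmnA RNAi. These are values of 1 map each, with no test of their differences.

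Of 849 promoter windows that could be placed on mm9, 26 lay in members, 267 in LADs of all maps and 461 in sequence outside LADs, beside fragment lengths of 53.9, 1273 and 734 Mb. The placed windows in members belonged to 26 genes, 16 of them protein-coding. Besides the 5 genes shown, these were Fat2 (an atypical cadherin), Aspa (aspartoacylase), Olfr20 (an olfactory receptor), Insm2 (a zinc finger factor), Wnk2 (a kinase), Ap1ar (a regulator of the adaptor complex AP-1), Adh1 (an alcohol dehydrogenase), Cntln (the centriole protein centlein), Det1 (a component of a ubiquitin ligase), Cmc2 (a mitochondrial protein of cytochrome oxidase assembly) and Cenpn (a centromere protein). Cmc2 and Cenpn start from opposite strands at the same sites. Olfr20 starts across a member border, with its sites within 0.008 kb of the edge. All were chosen by the placing, not by their signal, but after the values were known.

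The ratio around these starts was compared with that of the whole member. Over the 15 distinct protein-coding starts, the 20 kb around the start was below the mean of the member at 9 starts after LmnB1 RNAi, at 10 after LmnA RNAi and at 10 after LmnC RNAi. Without single-library fragments these counts were 10, 8 and 10. The windows of Olfr20, Wnk2, Cntln and of Cmc2 with Cenpn reached past the member's edge, which was 0.008, 1.57, 3.67 and 2.85 kb from their sites. The share for other 20 kb windows of the members was not computed, so no dip at starts is read from these counts.

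Trappc11 lies in a whole shared interval of 269 kb on chromosome 8, chr8:48470096-48738649, with the sites shown above lying at 48618987 to 48619075 on the minus strand. The fragment between the site at 48618987 and the next site, 75 bp away, had 9 Dam-only reads and no fusion read after LmnB1 RNAi, 17 and none after LmnA RNAi, and 2 and none after LmnC RNAi. The 20 kb around the start had -1.69 after LmnB1 RNAi, -0.49 after LmnA RNAi and -2.72 after LmnC RNAi, against -0.01, 0.47 and -0.44 for the member. The 20 kb around the Trappc11 start was thus lower than the member around it in every map.

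Ccng2 showed the lowest ratios. Its 20 kb had -4.01 after LmnB1 RNAi, -2.92 after LmnA RNAi and -3.32 after LmnC RNAi, against -1.08, 0.34 and -0.69 over its member chr5:93644827-93713190 (68.4 kb, an edge). Its start is 16.8 kb from the member's edge, so the window lies inside the member. At Esr2, in the edge chr12:77251732-77337786 (86.1 kb), the fragments between the 4 sites held 4, 5 and 5 Dam-only reads and no fusion read after LmnB1 RNAi. After LmnA RNAi, the same fragments had 4 Dam-only reads in the first and reads of both libraries in the others, and after LmnC RNAi they had 3, 10 and 13 Dam-only reads with no fusion read. Dam alone had marked fragments of the Esr2 promoter in each map. Over 20 kb Esr2 had deposited ratios close to those of its member, with -0.68 after LmnB1 RNAi, 0.52 after LmnA RNAi and -0.63 after LmnC RNAi, against -0.77, 0.62 and -0.89 for the member. Without single-library fragments it had -0.66, 0.13 and -0.59, against -0.30, 0.04 and -0.42 for the member, so its order relative to the member changed after LmnB1 RNAi, LmnA RNAi and LmnC RNAi alike.

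Il2ra was the opposite case. It lies in a whole shared interval, chr2:11479895-11607300 (127 kb), and the 20 kb around its start had 2.22 after LmnB1 RNAi, 3.07 after LmnA RNAi and 3.40 after LmnC RNAi, against 0.56, 1.37 and 1.03 for the member. This 20 kb was at LAD level in every map, the LmnB1 RNAi map included. Neurog1, in the whole shared interval chr13:56243739-56639932 (396 kb), had -0.42 after LmnB1 RNAi, -0.17 after LmnA RNAi and -1.68 after LmnC RNAi over 20 kb, against -0.38, 0.17 and -0.85 for the member. Reads were few at the short fragments of its window, with 1 Dam-only read after LmnB1 RNAi and 1 fusion read after LmnC RNAi in the 5 bp fragment between neighbouring sites.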

How the data were processed

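DamID libraries of mouse embryonic fibroblasts after LmnB1, LmnA or LmnC RNAi were compared as 3 maps, each with 1 fusion and 1 Dam-only library. Reads were aligned with Bowtie to mm9, per the submitters' processing notes, and how LADs were called is not given in the sources used here. Deposited signal values give 1 log2 ratio for each of 5972542 autosomal GATC fragments, and the deposited LAD lists hold starts and ends. From the steps of the values, 1e-05 was added to fusion and Dam-only reads before the log2 ratio, and a constant of the map to the result (-0.15 after LmnB1 RNAi, -0.34 after LmnA RNAi, 0.21 after LmnC RNAi). A fragment at the constant had no reads, or equal reads, in both libraries. Total reads per library are unknown, so no counting interval is given.

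Members were built with Python 3.11.15, numpy 2.4.6 and pandas 2.3.3, and the steps were checked on simulated data. Means over members weight fragments by length, and SEs over fragments, borders or members describe variation within 1 map, not between replicates. Backgrounds are 23944 autosomal 100 kb bins and the 13558 of them with at least 50% of their length in LADs of LmnA and LmnC RNAi. The members, comparisons and lists were chosen with earlier results of these data known. The regions named are the 8 longest members, the 5 members of 100 kb or more with the lowest and the 5 with the highest centred difference, the 2 members just above and the 2 stretches just below the length limit, and the chromosomes with the most members, the fewest, and the highest share. The 10 members above the median of short LmnB1 RNAi LADs, the extreme places and the promoters were added after the values were seen.

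No mm9 annotation was used. RefSeq promoter windows with 3 or more GATC sites (1057) were matched to the site spacing of the mm9 fragments on the same chromosome. Of these, 513 matched once, and 487 of the 488 distinct ones followed the RefSeq gene order. A further 362 with several matches were placed where 1 match alone lay between placed neighbours, which gave 849. Alternatives were centring, quantile normalization, leaving out fragments read in 1 library or at the constant, equal fragment weights, other length and gap limits, and wider LmnB1 RNAi LADs.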

Additional observations from a re-analysis of the deposited data

How the results depend on the processing

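Limits. Each map is 1 library pair, so no value here has a replicate error, and no paired fit exists. No paired analysis was possible because each group has 1 sample and no result comes from a test. Means lean on fragments read in 1 library, most of them with few reads. Of 49 alternative values, 4 turned sign, 16 were counted as moved and 29 as unchanged. The 29 include sizeable shifts, such as 550 members beside 383, and 300 members below both other maps beside 208. The median difference of LmnB1 RNAi from LmnA RNAi (-1.13) stayed below 0 throughout, at -0.45 after centring each map, -0.46 after quantile normalization, -0.34 without single-library fragments, -0.40 also without fragments at the constant, -2.19 with equal weights, -1.01 for members of at least 100 kb and -1.24 for members of at least 25 kb. The median difference from LmnC RNAi (-0.05) was -0.51 after centring, -0.59 after quantile normalization, -0.70 with equal weights and -0.10 with members of at least 25 kb, but turned to 0.0904 without single-library fragments, 0.15 also without fragments at the constant, 0.0157 for members of at least 100 kb and 0.0158 with LmnB1 RNAi LADs widened by 10 kb. The cause was not tested. Members below both other maps (208) numbered 274 after centring, 277 after quantile normalization, 300 with equal weights, 128 without single-library fragments, 104 also without those at the constant, 110 of the 231 members of at least 100 kb, and 328 of the 550 members of at least 25 kb. Apart from these 231, the number of members ran from 334 to 550, and their length from 48.9 to 72.9 Mb, with 43.4 Mb in the 231. Whole intervals ran from 112 to 119, and the telomeric share ran from 11.3% to 13.6%, in settings chosen after seeing the data.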

Other observations

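The X chromosome was outside the choice of members. The same rule found 20 stretches there, with 2.59 Mb in all, or 2.14% of the LAD length shared by LmnA RNAi and LmnC RNAi on that chromosome. Their median log2 ratio was -0.05 after LmnB1 RNAi, 1.47 after LmnA RNAi and -0.28 after LmnC RNAi. All 20 were below the LmnA RNAi value and 9 were below the LmnC RNAi value, with a median difference from LmnC RNAi of 0.07. The share of X chromosome bins below these values was not computed, so nothing about the stretches is read from the counts.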
